A study of Mus musculus with 8 samples.

Results

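Adrenergic receptors are the G protein-coupled receptors through which noradrenaline and adrenaline act on cells. Their genes were read here in whole hippocampus of mice that had lost the chromatin protein CTCF from excitatory forebrain neurons. The members were the 8 genes Adra1a, Adra1b, Adra1d, Adra2a, Adra2b, Adra2c, Adrb1 and Adrb3. They were taken by name from the array's own annotation, which gave them 12 of 39429 probes, with 1 probe each for 4 genes and 2 probes each for the other 4. The genes were selected on measured values, the difference between knockout and control pools of the same number, so their differences between genotypes are given below as descriptions, without a test.

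Ctcf CKO mice carried loxP sites on both copies of Ctcf together with Camk2a-Cre, a Cre recombinase driven by the promoter of a calcium-dependent kinase of forebrain excitatory neurons. WT mice carried the same floxed Ctcf alleles and were negative for the Cre, so no group here had unmodified Ctcf alleles and none carried the Cre alone. All mice were C57BL/6 adults of 3 to 6 months that had gone through behavioural testing (open field, sensorimotor tasks, water maze, social approach). Each sample pooled hippocampal RNA of 3 mice, and there were 3 pools per genotype. Pools were matched across genotypes for sex and age: tissue of pool 1 came from 2 females with 1 male (19 to 23 weeks of age), that of pool 2 from females alone (18 to 19 weeks) and that of pool 3 from males alone (15 to 17 weeks). Sex and age therefore cannot be told apart between pools. Pool 1 was read on 2 arrays, which made 8 single-colour Agilent arrays, 4 per slide. Its first reading shared slide 1 with pool 2, and its second reading shared slide 2 with pool 3, in both genotypes. Glia, vessels and interneurons in the same tissue keep their Ctcf, and a lower level in such bulk RNA cannot separate fewer cells of a type from less RNA per cell.

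Noradrenaline reaches the hippocampus from axons of the locus coeruleus, a brainstem nucleus active in arousal and attention. Alpha2 receptors couple to Gi and Go proteins, which restrain adenylyl cyclase and act on channels, and they sit both on noradrenergic terminals, as autoreceptors, and on target cells. Beta receptors couple to Gs and raise cyclic AMP, a route by which noradrenaline favours long-term potentiation, and alpha1 receptors couple to Gq and phospholipase C.

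Levels below are log2 of the processed spot signal minus the array's 75th percentile, so 0 is the signal at that percentile. A level belongs to its probe, and probes are not ranked against each other. No spot was saturated, and between 59.2% and 66.0% of an array's spots were well above background. The second array of WT pool 1 had the lowest 75th percentile (2112, highest array 5104). Repeat arrays correlated at 0.989 in CKO pool 1 and at 0.954 in WT pool 1, and results that rest on the dim WT array are also given without it. Ctcf itself stood at 0.18, 0.16 and 0.053 in CKO pools 1 to 3, against 0.83, 1.12 and 1.04 in WT pools. The CKO pools lay below all WT pools, with a difference of -0.87 (SE 0.13, limma adjusted p = 0.142), and -0.95 (adjusted p = 0.00407) without that array; whether the probe lies in the deleted part of the gene was not checked.

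Among the alpha2 genes, Adra2c and Adra2a were the receptor genes whose CKO pools lay below all WT pools with both arrays of pool 1 averaged. Adra2c encodes a presynaptic and somatodendritic alpha2 receptor, and Adra2a the main alpha2 autoreceptor of noradrenergic neurons, which is also found on cortical pyramidal cells. The cell bodies of noradrenergic neurons lie outside this tissue, so the levels here do not report their autoreceptors. Adra2c was at -0.093, -0.17 and 0.32 in CKO pools 1 to 3, against 1.11, 0.90 and 0.98 in WT pools 1 to 3. The groups were separated by 0.57 between the highest CKO pool (pool 3, the males) and the lowest WT pool. The means were 0.021 ± 0.27 in CKO and 1.00 ± 0.11 in WT (SD, n = 3 pools each), a difference of -0.98 (SE 0.17), which puts the CKO mean at 50.8% of the WT mean. Of 18311 genes measured on the arrays, 63 (0.344%) were lower by more than Adra2c.

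Adra2c was lower in CKO in each pool number, by -1.20 in pool 1, -1.07 in pool 2 and -0.66 in pool 3. Both arrays of pool 1 gave nearly the same value, with -0.11 and -0.078 in CKO and 1.11 on each array in WT. The difference was -1.14 within slide 1 and -0.92 within slide 2, and it was as large without the second array of WT pool 1 (-0.98). Pool 3 exceeded pool 2 by 0.49 in CKO and by 0.083 in WT. The Adra2c probe was well above background on all 8 arrays, with processed signals of 2731 to 5983 in CKO and 4570 to 9498 in WT.

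Adra2a was at -0.61, -0.84 and -0.67 in CKO pools 1 to 3, against -0.41, -0.32 and -0.34 in WT pools. The WT pools were close together, and the gap between the nearest pools of the groups was 0.21. The means were -0.71 ± 0.12 in CKO and -0.36 ± 0.045 in WT (SD, n = 3 pools each), a difference of -0.35 (SE 0.074), with the CKO mean at 78.3% of the WT mean. By pool number the difference was -0.21, -0.52 and -0.33, and within slides 1 and 2 it was -0.38 and -0.25. Of all genes, 832 (4.54%) were lower by more.

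Adra2b, which encodes an alpha2 receptor known mainly from vessels and thalamus, was at -3.39, -3.21 and -3.42 in CKO pools, against -3.41, -2.98 and -3.01 in WT pools. The pools overlapped, since WT pool 1 stood as low as the CKO pools. The difference was -0.20 (SE 0.15), and -0.28 without the second array of WT pool 1, on which Adra2b was 0.45 lower than on the first. The first array of WT pool 1 read -3.19, so without the second the CKO pools lay just below all WT pools.

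**Figure D1:**
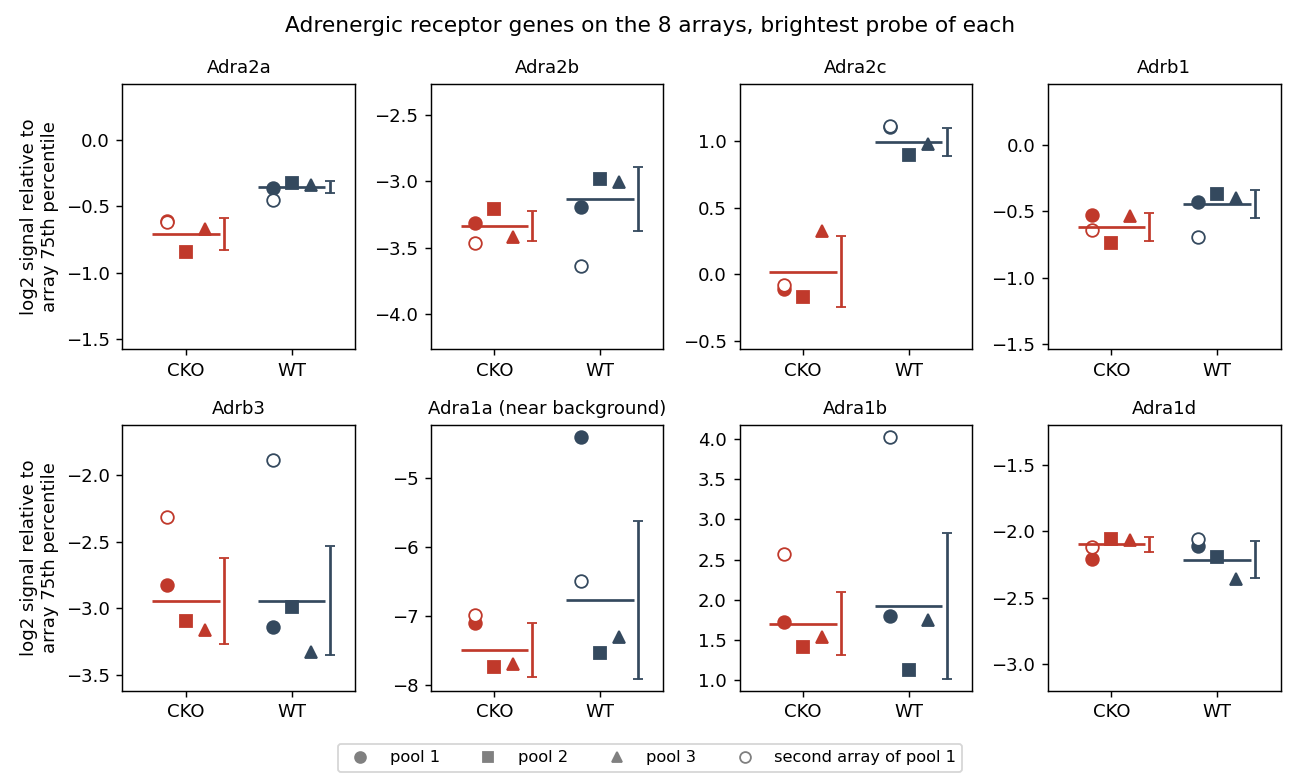
Level of each receptor gene on every array, as log2 signal relative to the array's 75th percentile, with CKO left and WT right in each panel; filled symbols are pools 1 to 3 (first array for pool 1), open circles the second array of pool 1, lines the mean of 3 pools and bars ± SD. Panels share no common range. Adra2c and Adra2a show CKO pools below WT pools, and in the Adra1b panel the second array of WT pool 1 stands at 4.02.

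Both genes were read by a single probe, whose first 30 bases are shown because the differences above rest on them.
Adra2c probe, first 30 bases: tgacttcctatgacctgaaaaaggcatctg
Adra2a probe, first 30 bases: ctgatttcacgagagaaaaactaaatgtca
The 250 bases before each start site, from the RefSeq table of promoters (build GRCm38.p6), are shown as the regions nearest to these genes in which a CTCF motif could be looked for. Adra2c lies on chromosome 5 (chr5:35278316-35278565, plus strand), and this stretch has 53.6% G and C and 6 CpG dinucleotides. Adra2a lies on chromosome 19 (chr19:54045009-54045258, plus strand), with 67.6% G and C and 22 CpG.
Adra2c promoter: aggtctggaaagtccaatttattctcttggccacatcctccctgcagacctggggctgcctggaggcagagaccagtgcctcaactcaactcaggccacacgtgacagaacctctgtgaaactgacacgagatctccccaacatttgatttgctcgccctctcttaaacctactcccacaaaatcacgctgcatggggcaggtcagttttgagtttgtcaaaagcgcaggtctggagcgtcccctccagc
Adra2a promoter: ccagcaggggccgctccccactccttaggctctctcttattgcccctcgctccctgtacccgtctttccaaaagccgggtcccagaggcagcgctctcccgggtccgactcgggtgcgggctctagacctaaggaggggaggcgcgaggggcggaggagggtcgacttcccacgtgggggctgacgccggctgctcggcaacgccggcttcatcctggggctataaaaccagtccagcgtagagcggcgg
Across the 32851 promoters of the table the median was 52.4% G and C and 6 CpG. A simplified CTCF core, CCNNNAGGNGGC read on both strands, was found in 964 of them (2.93%). Neither promoter printed here holds these letters, and 1 of the 6 listed promoters of 5 receptor genes does, the second of Adra1b. A match or its absence in this window says nothing of binding.

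Of the 7 receptor genes that passed the filter, each well above background on all 8 arrays, 6 were lower in CKO by their brightest probe and 1 was higher. The median difference was -0.20, against -0.0033 over all genes measured. With both arrays of pool 1 averaged, CKO pools lay below all WT pools for 2 of the 7, beside 5.64% of all genes. Since this contrast chose the genes, nothing is read from that count.

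Adrb1 encodes a beta receptor of cortical and hippocampal neurons. Its brighter probe was at -0.58, -0.74 and -0.54 in CKO pools, against -0.56, -0.37 and -0.40 in WT pools. It was lower in CKO in each pool number (-0.023, -0.36 and -0.14), yet the pools overlapped by 0.023 because WT pool 1 stood as low as CKO pools 1 and 3. The difference was -0.17 (SE 0.084), with -0.23 within slide 1 and -0.044 within slide 2. The first array of WT pool 1 read -0.43 and the second -0.69. Without that second array the CKO pools lay below all WT pools by this probe, with a difference of -0.22. The other Adrb1 probe went the opposite way, at -3.29, -3.82 and -3.86 in CKO pools, against -3.71, -3.54 and -4.37 in WT pools, a difference of 0.22 (SE 0.31). The probes of Adrb1 therefore gave no common direction.

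Adrb3, a beta receptor best known from fat tissue, was at -2.57, -3.10 and -3.17 in CKO pools, against -2.51, -2.99 and -3.33 in WT pools by its brighter probe. The pools were interleaved and the difference was -0.0023 (SE 0.30). Its other probe was at -3.95, -3.93 and -4.34 in CKO pools, against -4.02, -3.30 and -3.53 in WT pools, a difference of -0.46 (SE 0.25) with overlapping pools. For the brighter probe, the second array of WT pool 1 read 1.25 higher than the first, and without it the difference was 0.21.

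One probe of each beta gene lies in coding sequence that marks the family, and is printed to show what was read. In the weaker Adrb1 probe the capitals mark the codon of the aspartate in the third transmembrane helix that binds the amine of noradrenaline. In the brighter Adrb3 probe they mark the codons of the conserved motif at the end of the seventh helix, which takes part in receptor activation; the last codon is cut by the end of the probe.
Adrb1 probe: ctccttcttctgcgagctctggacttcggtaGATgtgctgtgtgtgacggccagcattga
Adrb3 probe: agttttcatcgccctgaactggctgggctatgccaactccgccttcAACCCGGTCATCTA

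Among the alpha1 genes, Adra1d, an alpha1 receptor abundant in rodent hippocampus, was the receptor gene higher in CKO. Its brighter probe was at -2.16, -2.06 and -2.07 in CKO pools, against -2.08, -2.19 and -2.36 in WT pools. The pools overlapped through pool 1, and the difference was 0.12 (SE 0.086). The other Adra1d probe was at -4.02, -4.34 and -4.07 in CKO pools, against -3.91, -4.32 and -4.48 in WT pools, with a difference of 0.095 (SE 0.20). Both probes had the same sign, and with both the groups overlapped.

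Adra1a, the alpha1A receptor, was not well above background on any of the 4 CKO arrays and was so on 1 of 4 WT arrays, the first of pool 1. It did not pass the filter. Its processed signal was 22.7 to 28.6 on the CKO arrays, against 208.7 on that WT array and 23.4 to 25.0 on the other 3. The lowest of these 3 was the second array of the same WT pool, so no level or fold is given.

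Adra1b, the alpha1B receptor, varied most over the 6 pools (SD 0.63) among the 7 receptor genes that passed the filter. Its brighter probe was at 2.15, 1.42 and 1.54 in CKO pools, against 2.91, 1.13 and 1.74 in WT pools. WT pool 1 was highest and WT pool 2 lowest, with the CKO pools between them. The difference was -0.22 (SE 0.57) and turned to 0.15 without the second array of WT pool 1. In CKO pool 1 the second array read 2.56 and the first 1.73, and in WT pool 1 the second array read 4.02 and the first 1.80. The other Adra1b probe was at -2.63, -3.0 and -2.82 in CKO pools, against -2.09, -2.91 and -2.40 in WT pools, a difference of -0.35 (SE 0.26), and -0.15 without that array.

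The brighter Adra1b probe holds an unbroken run of C and T, printed because probes that share this feature moved together between repeat arrays.
Adra1b probe, C and T run: TCTCTCTCTCTTCTCTCTCT
This run is 20 bases long. Over the 75 probes above background with a C and T run of at least 18 bases that held at least 4 of each letter, the second array of CKO pool 1 exceeded the first by a median of 0.82, and the second array of WT pool 1 exceeded its first by 1.90. Over the 23419 probes with no such run of C and T or of A and G, these medians were 0.040 in CKO and 0.084 in WT. The Adra1b values, 0.83 in CKO and 2.23 in WT, are thus near the medians of probes with such a run. Its part in the Adra1b pattern was not tested.

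**Figure D2:**
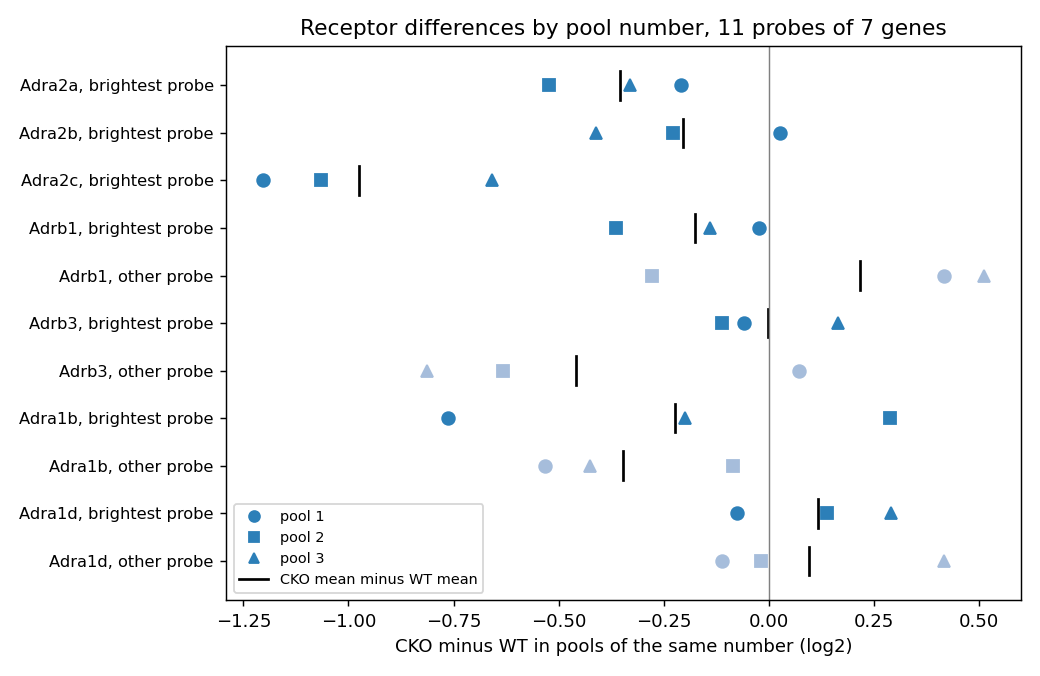
CKO minus WT log2 difference of each of the 11 receptor probes that were above background, by pool number (symbols) and as the difference of means (black tick); darker symbols are the brightest probe of a gene. All 3 pool numbers lie left of 0 for Adra2c, Adra2a, the brighter Adrb1 probe and the weaker Adra1b probe; the Adrb1 probes have means on opposite sides of 0.

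The genes with the levels most like those of Adra2c and Adra1b, the most variable of the 7 receptor genes that passed the filter, were taken by the smallest root mean square difference of mean-centred log2 levels over the 6 pools. For Adra2c these were Tmprss6, a membrane serine protease gene (0.079), Ajm1, a junction protein gene (0.15), and Pcdhb13, a protocadherin gene (0.17). Their differences between genotypes were -1.06, -0.98 and -0.88, each with CKO pools below all WT pools. Tmprss6 was dim, at -5.08, -5.24 and -4.71 in CKO pools, against -3.73, -4.16 and -3.96 in WT pools. On the arrays of CKO pool 1 the dimmest signals called well above background stood at -5.15 and -4.79. The CKO level of Tmprss6 is thus near the floor, and the size of its difference is uncertain. Pcdhb13 was also dim in CKO pools, at -4.47, -4.71 and -4.52, so the size of its difference is uncertain too. For Adra1b the nearest were Tmprss11b, another serine protease gene (0.067), the stress kinase gene Map3k5 (0.068) and Skint9 (0.070). Their probes held C and T runs of 17, 13 and 24 bases, and the second array of WT pool 1 exceeded the first by 2.66, 2.20 and 2.37. With 6 pools and this many genes, near matches are a description of pattern alone.

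**Figure D3:**
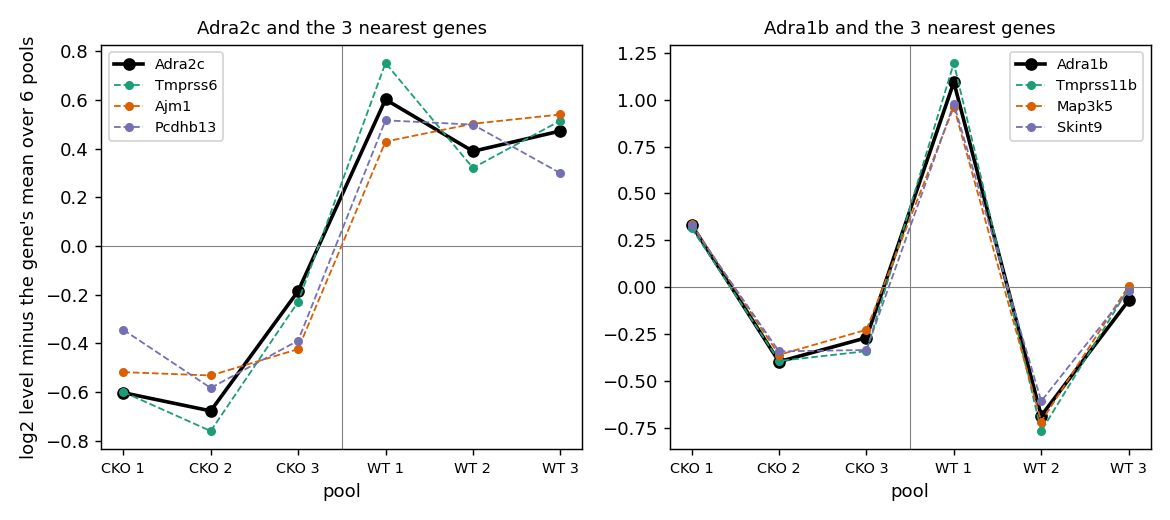
Log2 level minus the gene's mean over the 6 pools, CKO pools left and WT pools right, for Adra2c (left panel) and Adra1b (right panel) with the 3 genes nearest in pattern. The Adra2c set separates CKO from WT pools, and the Adra1b set peaks at WT pool 1 and is lowest at WT pool 2.

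The genes that make and break down noradrenaline and carry the receptor signal were then tested in the same fit over all 18311 genes. Of 129 genes in 9 lists by role, 118 were measured, 64 higher and 54 lower in CKO, with a median of 0.018. By limma 0 of the 118 passed an adjusted p of 0.05, beside 8 of all genes (0.0437%), and 11 had an unadjusted p under 0.05, 5 higher and 6 lower, beside 5.48% of all genes. With the pool number as a block 103 of all genes passed (0.563%) and still 0 of the 118. With pool 1 read by its first array alone 2 passed, Grk4 (0.99, adjusted p = 0.0371) and Rgs9 (-0.66, adjusted p = 0.0427), beside 125 of all genes (0.683%). CKO pools lay below all WT pools for 11 of the 118 and above for 5, beside 5.64% and 5.71% of all genes.

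For noradrenaline handling, 13 of 15 genes were measured, 6 higher and 7 lower, with a median of -0.018. At an unadjusted p under 0.05 there were 0. The nearest were the cation transporter genes Slc22a2 (-0.41, SE 0.22; -0.23 without CKO pool 3) and Slc29a4 (0.14, SE 0.11), whose products take up monoamines, at limma adjusted p of 0.998 and 0.999. The noradrenaline transporter gene Slc6a2, a defining gene of noradrenergic neurons, and Slc22a3 were not measured above background. The tissue was hippocampus, without the locus coeruleus, so this list cannot report RNA in the cell bodies of noradrenergic neurons. No conclusion on the making of noradrenaline is drawn from it.

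G protein alpha subunit genes had 6 of 9 higher and a median of 0.059. Gnao1, the alpha subunit of Go to which alpha2 receptors couple, was at 4.72, 4.54 and 4.69 in CKO pools, against 4.75, 4.84 and 4.89 in WT pools. The CKO pools lay just below all WT pools, with a difference of -0.17 (SE 0.12) that did not pass (limma adjusted p = 0.999). Gnai2, a Gi subunit, stood at 0.23 (SE 0.26), at -0.013 without WT pool 3 and at 0.52 without WT pool 1.

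Receptor kinases, arrestins and receptor partners had 8 of 13 higher and a median of 0.016. Grk4 encodes a kinase that phosphorylates active receptors. It was at -3.56, -3.42 and -3.07 in CKO pools, against -5.23, -4.14 and -4.18 in WT pools. Every CKO pool was above every WT pool, and WT pool 1 was the lowest. The difference was 1.17 (SE 0.33, limma adjusted p = 0.535), and 0.89 without the second array of WT pool 1; the probe was well above background on 4 CKO arrays and 3 of 4 WT arrays. Grk5, a related kinase, stood at 0.33 (SE 0.23), at 0.55 without WT pool 1 and at 0.16 without WT pool 2.

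RGS proteins speed the switching off of G protein alpha subunits. Of 16 genes 11 were higher and 5 lower, with a median of 0.058. Rgs9, an RGS gene best known from striatum, was at -0.41, -0.58 and -0.40 in CKO pools, against 0.25, 0.027 and 0.31 in WT pools. All CKO pools were below all WT pools, with a difference of -0.66 (SE 0.14, limma adjusted p = 0.260). Rgs2, an activity-regulated member that acts on Gq, was at 3.22, 2.32 and 3.03 in CKO pools, against 2.35, 2.21 and 1.53 in WT pools. Here CKO pool 2 lay within the WT range, and the difference of 0.83 (SE 0.28) did not pass (limma adjusted p = 0.727).

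Adenylyl cyclase genes had 7 of 9 higher and a median of 0.12, with Adcy3 at 0.20 (SE 0.16) and Adcy5 at 0.14 (SE 0.14), and none had pools that did not overlap. Without WT pool 1 these were 0.30 and 0.26, and without WT pool 3 they were 0.080 and 0.057. Among protein kinase A, Epac and CREB-related genes 13 of 19 were lower, with a median of -0.033. CKO pools lay below all WT pools for 5 of the 19 and above for 1, beside 5.64% and 5.71% of all genes. Akap7, which anchors protein kinase A near channels, was at 1.75, 1.97 and 1.84 in CKO pools, against 2.24, 2.13 and 2.26 in WT pools, a difference of -0.36 (SE 0.12, limma adjusted p = 0.695). Prkar2a, a regulatory subunit of protein kinase A, was at -0.24, -0.47 and -0.16 in CKO pools, against -0.89, -0.51 and -1.39 in WT pools. The gap between CKO pool 2 and WT pool 2 was small, and the difference of 0.64 (SE 0.23; 0.41 without WT pool 3) did not pass (limma adjusted p = 0.776).

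Phosphodiesterase genes, which end the cyclic AMP signal, had 8 of 15 higher and a median of 0.052. Pde1c stood at 0.53 (SE 0.20, limma adjusted p = 0.823), with 3 of 4 WT arrays well above background, and Pde1b at -0.45 (SE 0.19, adjusted p = 0.909), or -0.24 without WT pool 1. Of the Gq route (phospholipase C, inositol trisphosphate receptors, protein kinase C) 7 of 15 genes were higher, with a median of -0.014. Plcb1, a phospholipase C that Gq activates, was at 2.03, 2.10 and 2.09 in CKO pools, against 2.27, 2.38 and 2.53 in WT pools. The pools did not overlap, with a difference of -0.32 (SE 0.12, limma adjusted p = 0.803). Prkcd, a protein kinase C gene, stood at -0.62 (SE 0.35) with overlapping pools, at -1.04 without WT pool 2 and at -0.29 without WT pool 3.

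Channels that act downstream of the receptors had 5 of 9 genes higher and a median of 0.029. Kcnj9, a subunit of the potassium channels that Gi and Go open, stood at -0.29 (SE 0.19), at -0.16 without WT pool 1 and at -0.44 without WT pool 3. Cacna1b, the N-type calcium channel gene, failed the background criterion on all 4 WT arrays and passed the filter through the CKO arrays alone. It was at -4.50, -4.78 and -4.85 in CKO pools, against -4.72, -5.16 and -5.72 in WT pools. The pools overlapped and the difference did not pass (limma adjusted p = 0.999). The CKO mean was 1.22-fold a bound on the WT mean, and no change is read from it. That bound takes the probe's own signal or, on arrays where that was lower, the dimmest signal called well above background.

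**Figure D4:**
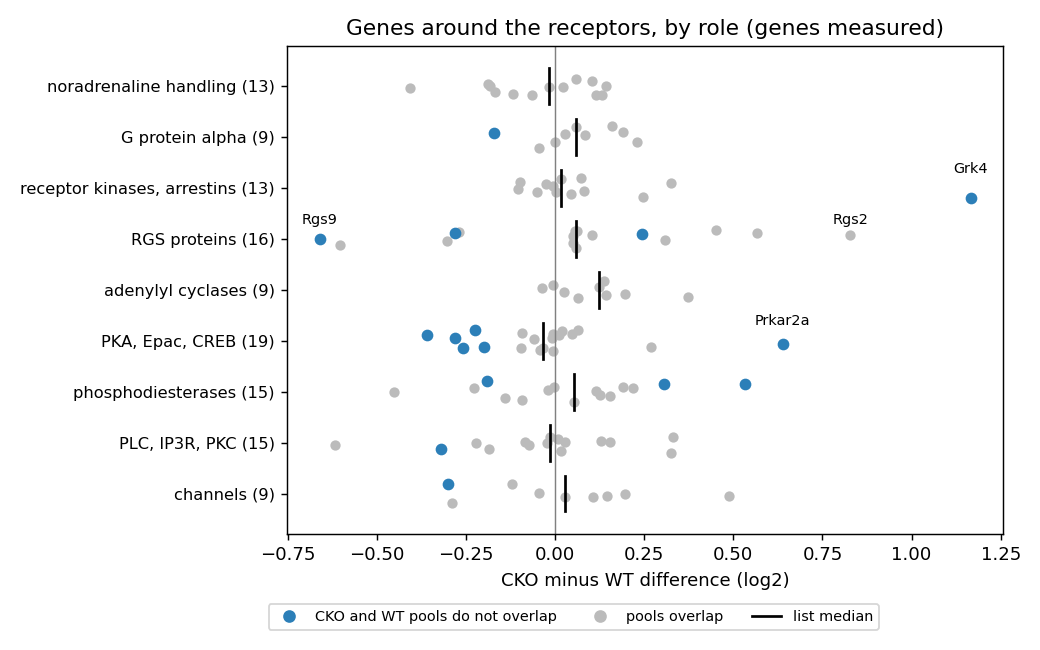
CKO minus WT log2 difference of each measured gene in 9 lists of genes around the receptors, 1 point per gene; blue points have CKO and WT pools that do not overlap, and black ticks are list medians. Most points lie within 0.5 of 0, Grk4 (1.17) and Rgs9 (-0.66) lie farthest out in each direction, and 0 of 118 passed the test.

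Markers of the cell types and neighbouring regions that the tissue could hold were read in the same pools, as the mean of a list relative to the WT mean. Dentate granule cell markers were lower in CKO, a direction shared with Adra2c and Adra2a between the genotypes alone. Of these markers 5 of 5 measured were lower (median -0.42), with CKO pools at -0.62 to -0.54 and WT pools at -0.082 to 0.14. Prox1 and Tdo2 were not measured above background. CA1 markers were lower in 5 of 6 (median -0.098), with CKO pools at -0.34 to -0.14 and WT pools at -0.080 to 0.060. Oligodendrocyte markers were higher in 7 of 8 (median 0.21), with CKO pools at 0.16 to 0.24 and WT pools at -0.017 to 0.024. Choroid plexus markers were higher in 9 of 9 (median 0.87), with CKO pools at 0.51 to 1.00 and WT pools at -1.17 to 0.76. WT pool 1 was the low one. It was also the lowest for Grk4, whose difference fell from 1.17 to 0.89 without the second array of that pool. A link between these patterns was not tested. By limma 3 genes of the 13 marker lists passed with the block and not without it, beside 103 of all genes (0.563%) that passed with it. They were the dentate gene C1ql2 and the CA1 gene Wfs1, both lower, and the astrocyte gene Gfap, which was higher (adjusted p = 0.0480, 0.0165 and 0.0469). Without the block and without the second array of WT pool 1, Wfs1 and the dentate gene Dsp passed, both lower (adjusted p = 0.00407 and 0.04997), beside 131 of all genes (0.715%). In that limma fit C1ql2 and Gfap did not pass (adjusted p = 0.111 and 0.142). These 4 genes are named after their values were seen. The part of these lists in the receptor values was not tested.

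Of the other marker lists, general neuron and neocortex markers had pools that did not overlap, by a narrow margin. General neuron markers were higher in 3 of 7 (median -0.11), with a list mean in the opposite direction, CKO pools being at 0.060 to 0.12 and WT pools at -0.085 to 0.055. CA3 and CA2 markers were higher in 3 of 6, interneuron markers in 3 of 8, astrocyte markers in 5 of 8, microglia markers in 5 of 8, endothelial markers in 6 of 7 and mural cell markers in 5 of 6. Thalamus markers, a check of the dissection that bears on Adra2b, were higher in 3 of 7 with a median of -0.026. Their list mean was -0.16 to -0.034 in CKO pools, against -0.23, -0.17 and 0.40 in WT pools 1 to 3, so WT pool 3 stood apart; the Adra2b difference without that pool was -0.14. Neocortex markers were higher in 2 of 5, with CKO pools at -0.21 to -0.047 and WT pools at -0.0074 to 0.0047.

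**Figure D5:**
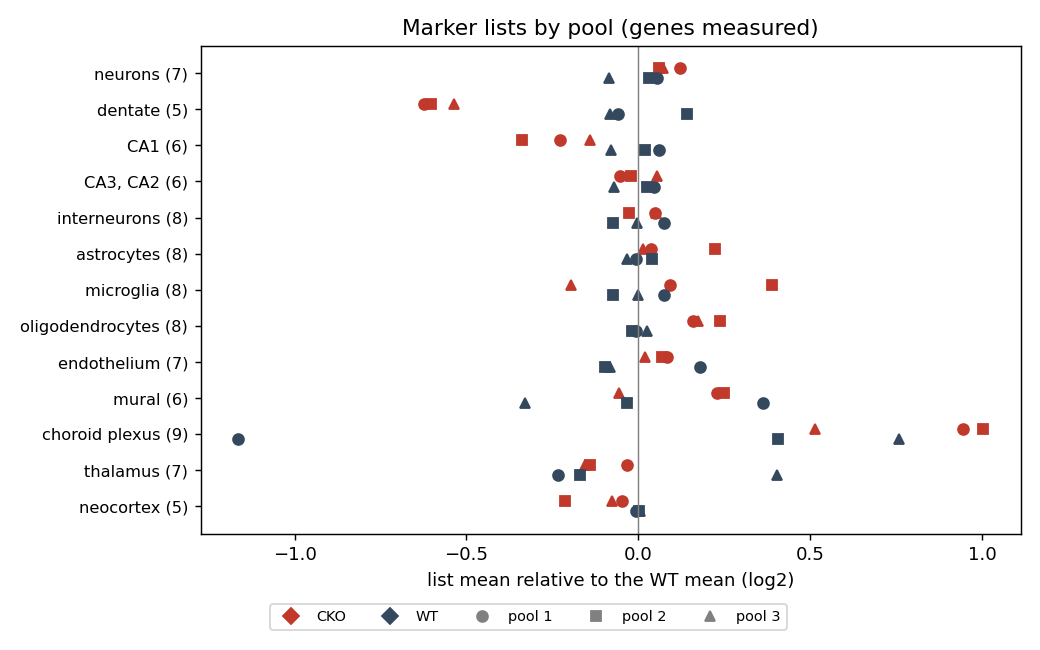
Mean log2 level of 13 marker lists in each pool relative to the mean of WT pools, with CKO in red above WT in blue in each row and symbols for pools 1 to 3. Dentate markers separate the genotypes (CKO -0.62 to -0.54, WT -0.082 to 0.14), and WT pool 1 stands at -1.17 for choroid plexus.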

How the data were processed

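Hippocampal RNA was labelled in the red channel and read on 8 arrays, per the labels. The authors deposited scanner files whose processed spot intensity had its background subtracted and its spatial trend removed by Agilent Feature Extraction 11.5 (submitters' processing notes; 11.5.1.1 and build mm9 per the file headers). They also deposited a value table of linear intensities whose scaling is not stated in any label or header; it served as an alternative.

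Values were log2 intensity minus the array's 75th percentile over non-control spots. Outlier spots were left out, spots of a probe were averaged, then repeat arrays of a pool, and probes well above background in at least 50% of their spots on every array of a genotype were kept (23648 of 39429). Of all probes, 27508 were named by accession, 3544 by symbol and 404 by synonym through RefSeq, and 7973 kept the file's name. Each of 18311 genes was read by its brightest probe. Pools were compared with limma 3.58.1 in R 4.3.3 (lmFit, eBayes with trend, two-sided, Benjamini-Hochberg over all genes, threshold 0.05). Errors of receptor differences come from the pools alone. The smallest p of an exact permutation test is 0.1 for 3 pools against 3, and the number of arrays limits the precision. Tested on simulated data for this comparison (18311 genes, 200 changed), 94% of genes changed by 3 on the log2 scale and 55% of those changed by 1 were called, with 8 unchanged genes called.

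The labels give pools of the same number the same sex and age makeup. Their deviations from the genotype means correlated across genes at 0.55, 0.33 and 0.13 for pools 1, 2 and 3, against at most 0.12 between different numbers. The value for pool 3 was thus close to that of different numbers. Pools of the same number also shared slides, so these correlations cannot separate sex and age from slide. The numbers were taken to pair the pools, and a fit with the pool number as a block was run.

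The receptors, the 9 lists of signalling genes and the 13 marker lists were chosen with earlier results of these data known. The text names all 8 receptors, Ctcf, the 2 genes of smallest unadjusted p in each signalling list plus any past the threshold, and the 3 genes nearest in pattern to the 2 most variable receptors. Alternatives changed the scaling, background correction, probe filter, slide, arrays of pool 1, array weights, value table and pools used.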

Additional observations from a re-analysis of the deposited data

How the results depend on the processing

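The count of 8 genes past the threshold (7 higher, 1 lower) was 103 with the pool numbers paired as a replicate block (72 higher, 31 lower), 5 with quantile scaling (5 higher, 0 lower), 5 with normexp background correction, 5 with probes above background on all 8 arrays and 3 with the authors' value table. It was 0 within slide 2, 125 with first arrays alone, 131 without the second array of WT pool 1 (79 with the block also, an alternative chosen after seeing the data) and 3187 with array weights. Leaving out 1 pool gave 0 to 21. For the signalling genes the count of 0 became 2 with first arrays and 34 with array weights, and leaving out 1 pool gave 0 to 0; the block changed no call among them, and Ctcf passed with it (adjusted p = 0.0298). Gnai2 ran from -0.013 (without WT pool 3) to 0.52 with 1 pool left out. Over 20 alternatives Adra2c ran from -1.14 to -0.88, Adra2a from -0.41 to -0.25, Adra2b from -0.34 to -0.12, Adrb1 from -0.23 to -0.044 and Adra1d from 0.022 to 0.24, each with 1 sign; Adra1b ran from -0.83 to 0.27 and Adrb3 from -0.20 to 0.33. The cause of these changes was not tested. Adra1a lies at background, and single probes read Adra2a, Adra2b and Adra2c.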

Other observations

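The genes beside each receptor gene were read too, a choice made after receptor values were seen: the 5 protein-coding neighbours on each side in the RefSeq gene order, 80 in all. Of these 58 were measured, 20 higher and 38 lower in CKO, with a median of -0.057. By limma 0 passed an adjusted p of 0.05, with or without the block, beside 0.0437% of all genes without it, and 2 had an unadjusted p under 0.05, both near Adra2c, beside 5.48% of all genes. Rgs12, an RGS gene that is also in the signalling lists, lies 4 genes before Adra2c. It was at 1.85, 1.79 and 1.73 in CKO pools, against 1.97, 2.15 and 2.09 in WT pools, a difference of -0.28 (SE 0.11, adjusted p = 0.853). Trmt44, a tRNA methyltransferase gene 3 genes beyond Adra2c, was at -3.13, -3.14 and -3.27 in CKO pools, against -3.78, -4.06 and -3.71 in WT pools, a difference of 0.67 (SE 0.20, adjusted p = 0.577). These neighbours thus had opposite signs, and the 8 measured neighbours of Adra2c had a median of 0.045. Its nearest measured neighbour, Lrpap1, which encodes a chaperone of lipoprotein receptors, stood at -0.045 (SE 0.14). Of the 6 measured neighbours of Adra2a 1 was higher and 5 were lower, with a median of -0.035, and the pools of all 6 overlapped.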
